A study of Drosophila melanogaster with 2 samples.

Results

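The cytosolic ribosomal protein genes of Drosophila melanogaster were examined for chromatin entries of l(3)neo38, a zinc finger protein, by chromatin immunoprecipitation with sequencing (ChIP-seq). The genes were taken by symbol from the Ensembl 115 annotation of the dm6 genome: every protein-coding gene whose symbol begins with RpL or RpS, and stubarista (sta), which encodes a small subunit protein. This gave 93 of 13945 protein-coding genes, 51 of them for the large subunit, 3 for the stalk of the large subunit (RpLP0, RpLP1 and RpLP2) and 39 for the small subunit. The names were not checked against protein sequence, and 5 of the symbols end in -like. The chromatin came from 2 biological replicates of 1 group, whole embryos of 0 to 24 h, males and females pooled, of a stable transgenic line in which l(3)neo38 carries a C-terminal enhanced green fluorescent protein (GFP). The antibody was against GFP, and the sonicated fragments were 200 to 800 bp long. What drives the transgene, and whether the line also carries the untagged gene, is not stated in the labels. Untagged embryos and the control library were not analysed here, so whether an entry is particular to the tagged protein was not tested.

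Ribosomal proteins are the protein part of the ribosome, and each is needed in about equal amount with the ribosomal RNA. In the fly, loss of 1 copy of many of these genes gives the Minute phenotype of slow growth and thin bristles. Their promoters are known for a pyrimidine-rich initiator, called TCT, in place of the usual initiator, and for the DNA replication-related element (DRE) and the elements named Motif 1 and Motif 6. Several proteins are encoded by a pair of genes, of which copies such as RpL22-like, RpS5b and RpS19b are known mainly from the germ line.

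The promoters of the genes with the strongest peaks on the arms 3L, 3R and X are shown first, since the position of the peak and the words around the start are described from them. Each runs from 130 bp before the transcript start nearest to the peak summit through the first 20 transcribed bases, read 5′ to 3′ along the gene from the release 6 genome sequence (dm6). The windows are chr3R:25247495-25247644 on the minus strand for RpS27, chr3R:25685032-25685181 on the minus strand for RpL27 and chr3L:8600876-8601025 on the plus strand for RpL14. RpL32 is at chr3R:30046142-30046291 on the minus strand, RpL23A at chr3L:1668635-1668784 on the minus strand, RpS4 at chr3L:13041671-13041820 on the plus strand and RpS10b at chrX:19597901-19598050 on the plus strand. The last pair, RpS28b at chrX:9554493-9554642 on the plus strand and RpS19a at chrX:16637764-16637913 on the plus strand, were added after they were seen to share the word AACTTCAC. Capitals mark the TCT initiator words (the letters TCTTTT on the sense strand, with C in place of T allowed at the first and at the last base, beginning no more than 10 bp before the start), and on either strand the DRE (TATCGATA), the Motif 1 core (GGTCACAC), the Motif 6 core (GGTATTT) and AACTTCAC. A match is a description of the letters only.
RpS27: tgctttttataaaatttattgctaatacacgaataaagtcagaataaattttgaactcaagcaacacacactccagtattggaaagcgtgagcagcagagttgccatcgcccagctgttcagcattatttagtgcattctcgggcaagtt
RpL27: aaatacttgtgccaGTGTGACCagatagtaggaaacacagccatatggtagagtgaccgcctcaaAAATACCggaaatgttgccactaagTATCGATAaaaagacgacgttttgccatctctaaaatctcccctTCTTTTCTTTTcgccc
RpL14: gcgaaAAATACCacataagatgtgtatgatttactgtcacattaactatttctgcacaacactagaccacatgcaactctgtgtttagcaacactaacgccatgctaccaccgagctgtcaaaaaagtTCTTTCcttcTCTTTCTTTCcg
RpL32: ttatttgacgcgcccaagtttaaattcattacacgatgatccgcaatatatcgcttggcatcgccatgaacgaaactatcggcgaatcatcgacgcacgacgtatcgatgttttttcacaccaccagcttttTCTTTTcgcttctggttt
RpL23A: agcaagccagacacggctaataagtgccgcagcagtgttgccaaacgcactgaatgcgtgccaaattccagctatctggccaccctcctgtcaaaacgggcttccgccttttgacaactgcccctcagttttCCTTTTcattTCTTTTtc
RpS4: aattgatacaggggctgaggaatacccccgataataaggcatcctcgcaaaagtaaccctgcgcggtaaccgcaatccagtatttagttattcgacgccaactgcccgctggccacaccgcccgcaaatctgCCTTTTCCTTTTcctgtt
RpS10b: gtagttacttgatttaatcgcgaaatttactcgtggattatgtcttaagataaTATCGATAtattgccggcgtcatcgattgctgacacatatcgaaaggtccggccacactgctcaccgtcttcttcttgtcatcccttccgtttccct
RpS28b: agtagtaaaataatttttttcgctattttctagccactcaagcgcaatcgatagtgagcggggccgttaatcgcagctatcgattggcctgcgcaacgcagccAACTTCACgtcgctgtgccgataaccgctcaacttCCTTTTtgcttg
RpS19a: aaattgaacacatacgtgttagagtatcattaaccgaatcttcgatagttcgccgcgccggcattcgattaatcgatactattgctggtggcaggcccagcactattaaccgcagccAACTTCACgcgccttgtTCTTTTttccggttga
The promoters of RpL27 and RpL14 both carry initiator words and a Motif 6 core, and that of RpL27 holds a DRE and a Motif 1 core as well. That of RpS27, the gene with the strongest peak of all 93, holds none of the words in capitals.

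For contrast, 3 genes with no entry in any list are shown over the same span, picked after their letters were seen. RpL6 is at chr3R:31596185-31596334 on the minus strand. RpL40 at chr2L:4227569-4227718 on the plus strand and RpS27A at chr2L:10408222-10408371 on the plus strand each encode a ribosomal protein fused to ubiquitin.
RpL6: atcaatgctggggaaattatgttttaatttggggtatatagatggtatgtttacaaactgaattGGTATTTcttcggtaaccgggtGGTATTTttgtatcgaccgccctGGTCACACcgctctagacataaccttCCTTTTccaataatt
RpL40: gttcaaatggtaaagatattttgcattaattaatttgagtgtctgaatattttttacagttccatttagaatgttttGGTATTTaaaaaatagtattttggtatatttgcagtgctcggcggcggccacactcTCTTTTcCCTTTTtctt
RpS27A: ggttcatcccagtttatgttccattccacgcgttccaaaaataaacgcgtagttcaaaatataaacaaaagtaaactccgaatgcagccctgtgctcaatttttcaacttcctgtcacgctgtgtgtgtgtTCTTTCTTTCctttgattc
All 3 carry initiator words, and RpL6 holds a Motif 1 core and Motif 6 cores.

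A thresholded peak summit lay within 500 bp of a transcript start at 22 of the 93 genes, or 23.7%, where 8.24% of all protein-coding genes had one. The thresholded list is the authors' list of 3953 peaks, derived from both replicates together. A peak in it need not have an entry in each replicate: at 4 of the 22 genes replicate 2 had none. The 22 genes were 11 of 51 for the large subunit (21.6%, exact 95% interval 11.3 to 35.3) and 11 of 39 for the small subunit (28.2%, interval 15.0 to 44.9), and none of the 3 for the stalk. These intervals, which cover counting over genes only, overlap. The pooled list of 30000 entries was made from both replicates together, and its label says that it holds background as well as peaks. It had an entry at 35 of the 93 genes against 25.1% of all genes. Replicate 1 had an entry at 50 genes against 28.6% of all, and replicate 2 at 36 genes against 24.2% of all. The 38 genes that remained had an entry in no list. Among all other protein-coding genes, 65.1% had none, against 40.9% of the ribosomal protein genes.

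**Figure D1:**
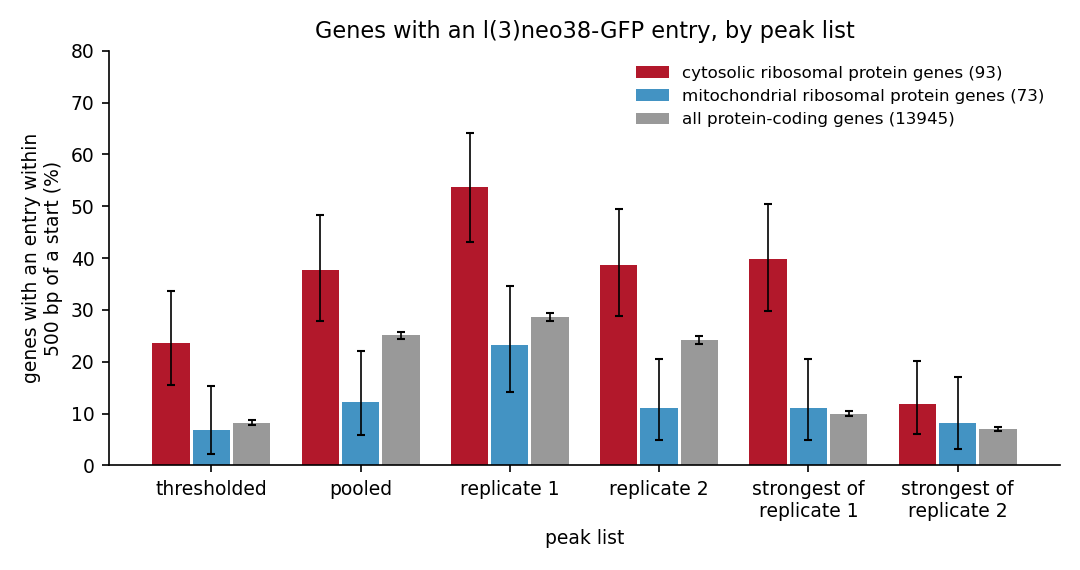
Share of genes (%) with an entry summit within 500 bp of a transcript start in each peak list, for cytosolic ribosomal protein genes, mitochondrial ribosomal protein genes and all protein-coding genes. Bars are shares and error bars exact 95% binomial intervals over genes. The cytosolic genes had 23.7% in the thresholded list and 39.8% among the strongest 3953 entries of replicate 1, and 11.8% among the strongest 3953 of replicate 2.

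The strongest peak was at RpS27, a small subunit protein. Its interval, chr3R:25247394-25247646, had a signal value of 523.7, the peak strength that the authors deposited, and its summit lay 24 bp before the start. Its rank was 262 among the 3953 thresholded peaks, 183 in replicate 1 and 969 in replicate 2, and RpS27 was the gene of the 22 with more than 1 thresholded summit. RpL41, the smallest protein of the large subunit, followed with a signal value of 367.5, rank 642, and ranks of 429 and 1182 in replicates 1 and 2. Its summit, 56 bp before its start at chr2R:24903899-24904102, also lay inside the gene NaCP60E, which encodes a sodium channel. RpL27 had a signal value of 363.7 and rank 663. It ranked 451st in replicate 1 and had no entry in replicate 2, so its peak in the thresholded list is not matched by an entry of that replicate within 500 bp.

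RpL14 had a signal value of 319.6 (rank 873, with ranks of 614 and 2088 in the replicates), and RpL32 one of 304.8 (rank 970, with ranks of 689 and 1956). The start of Nelf-E, a subunit of the negative elongation factor, lay 66 bp from the RpL14 summit, against 61 bp for RpL14 itself. RpL23A, a protein at the mouth of the exit tunnel, had 261.7 (rank 1309, with ranks of 819 and 3892). RpS4 had 256.3 (rank 1370, with ranks of 1122 and 2418). RpS10b had 254.0 (rank 1394), rank 901 in replicate 1 and no entry in replicate 2. In each of these genes the rank in replicate 1 was better than that in replicate 2, wherever both had an entry.

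The peaks at other large subunit genes were weaker and closer together. RpL19 had a signal value of 227.3, RpL30 of 222.8, RpL34b of 221.8 and RpL22 of 220.6. RpL8, which lies near the peptidyl transferase centre, had 164.5. Among the small subunit genes RpS25 had 226.6, RpS28b 179.9, RpS23, which lies near the decoding centre, 174.2, and RpS14a 169.6. The lowest were sta with 167.4, RpS15Aa with 161.3, RpS19a with 152.4 and RpS7 with 148.9. At sta the rank was 2921 among the thresholded peaks, 2890 in replicate 1 and 4515 in replicate 2. The median over the 22 genes was 222.3, between the median of all thresholded peaks, 209.6, and that of the other genes with a thresholded summit, 240.2. In strength the 22 peaks were like those of other genes: 13 of 22 (59.1%) and 59.8% of the other genes reached the median of the list.

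**Figure D2:**
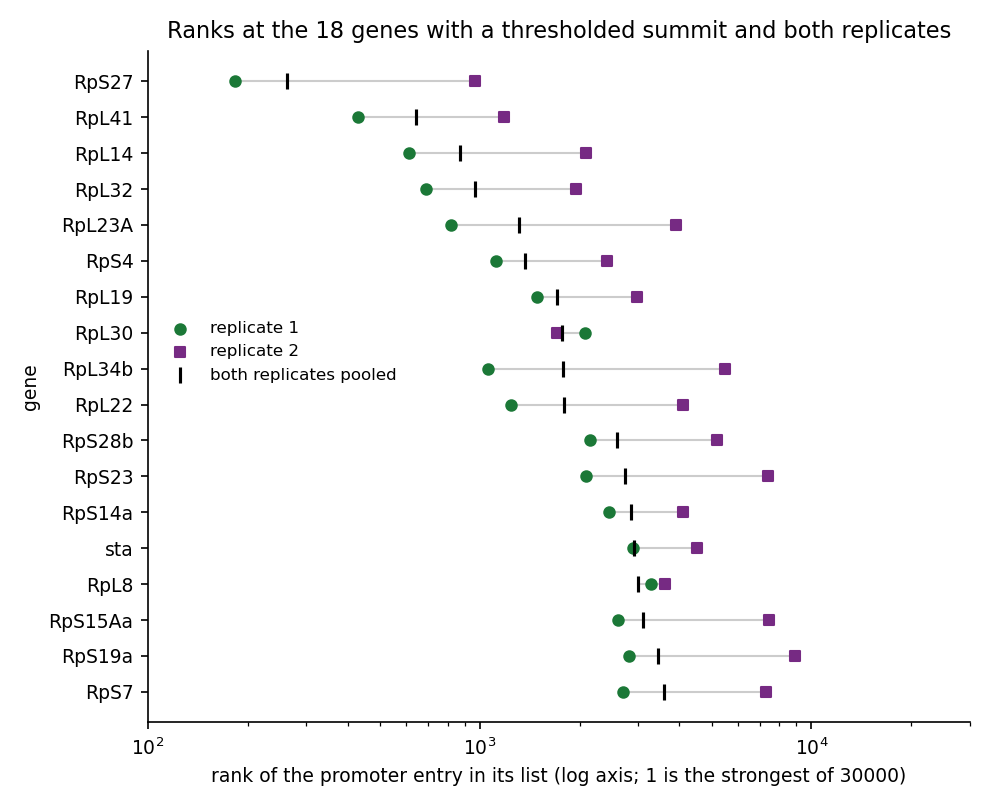
Rank of the promoter entry (log axis, 1 is the strongest) in replicate 1, in replicate 2 and in the pooled list, for the 18 ribosomal protein genes with a thresholded summit and an entry in both replicates. RpS27 leads in all 3 lists, at 183, 969 and 262, and the replicate 1 point lies to the left of the replicate 2 point at 17 of the 18.

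The replicates differed in how high they ranked these genes. Of the 31 genes with an entry in both replicates, 28 ranked better in replicate 1, where the median rank was 2451 against 5485 in replicate 2. The median ratio of the ranks was 2.84, or 1.51 on the log2 scale (quartiles 0.90 and 2.10). Among 2536 other genes with an entry in both, 1434 ranked better in replicate 1, and the median log2 ratio was 0.19 (quartiles −0.55 and 1.07). The exceptions among the 31 were RpL30, at 2077 in replicate 1 and 1706 in replicate 2, RpL17, at 5132 and 3909, and RpS30, at 16136 and 10299. Mitochondrial ribosomal protein genes also ranked better in replicate 1, by a median log2 ratio of 3.16 over the 7 genes with an entry in both and at 5 of these 7. With 2 samples of 1 group this difference between replicates was not tested, and the replicates' depths are unknown.

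Lists of equal length showed the same order. Of the strongest 3953 entries of each replicate, as many as there are thresholded peaks, those of replicate 1 fell at 37 of the 93 genes against 9.97% of all genes. Those of replicate 2 fell at 11 of the 93 genes against 6.96% of all, and 9 genes were in both. Among the other protein-coding genes, those of replicate 1 fell at 1354, those of replicate 2 at 960, and 759 were in both. All 22 genes with a thresholded summit were among the strongest of replicate 1, and 9 of them, or 40.9%, among the strongest of replicate 2. For the other genes with a thresholded summit these shares were 90.5% and 74.5%. No replicate 2 entry at all was found at 4 of the 22 (18.2%), RpL27 and RpS10b among them, against 4.79% of the other genes. Where both replicates had an entry, their summits were a median of 37 bp apart at the ribosomal protein genes, and within 100 bp of each other at 26 of 31 (83.9%). The median was 62 bp at the other genes, with 62.9% within 100 bp.

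**Figure D3:**
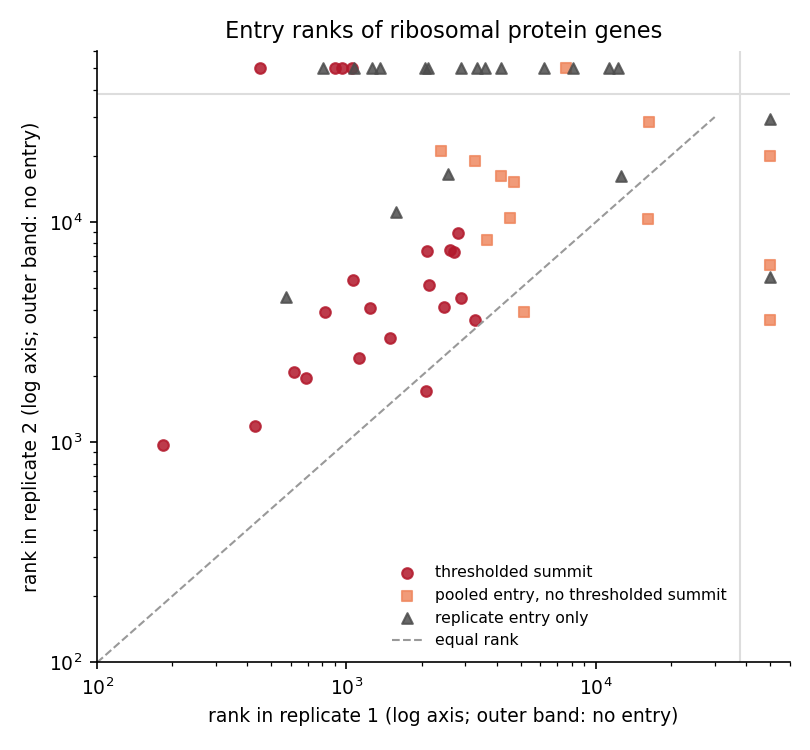
Rank in replicate 1 against rank in replicate 2 (log axes) for each ribosomal protein gene with an entry in either, by the strictest list that holds it. Points in the outer bands have no entry in that replicate, and the dashed line marks equal rank. Of the 31 genes with both, 28 lie above the line, and 19 have an entry in replicate 1 alone against 5 in replicate 2 alone. Among the other protein-coding genes, not drawn here, 1401 had an entry in replicate 1 alone and 799 in replicate 2 alone.

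Some genes with strong entries in replicate 1 had no pooled entry within 500 bp of a start, although the pooled list holds 30000 entries. This was so at 12 of the 37 genes named by the strongest entries of replicate 1 (32.4%, exact 95% interval 18.0 to 49.8), against 158 of 1354 other genes (11.7%). RpL13A had the strongest, at rank 573 in replicate 1 with a summit 54 bp before its start, and it had an entry in replicate 2 as well, at rank 4545 and 59 bp before the start. RpL24, at the interface of the subunits, ranked 806th in replicate 1, RpS16 1073rd, RpL13 1263rd and RpS5a 1363rd, with no entry in replicate 2. RpS21 ranked 1584th in replicate 1 and 11120th in replicate 2. RpL28 ranked 2564th and 16495th, by summits at different places, 341 bp before a start in replicate 1 and 78 bp in replicate 2. RpL28 did have a pooled summit, 623 bp before its start and so outside the 500 bp limit. With pooled summits counted to 1000 bp the 12 genes became 11. The others were RpL37A at 2063, RpL34a at 2123, RpL27A at 2875, RpL39 at 3351 and the stalk gene RpLP1 at 3581. For 9 of the 12 neither the pooled list nor replicate 2 had an entry, and the same held for 138 of the 158 other genes. By arm, 6 of the 12 lay on 2L, where 6 of 7 ribosomal protein genes and 44 of 250 other genes named by these entries had no pooled entry. Of the mitochondrial ribosomal protein genes named by these entries of replicate 1, 3 of 8 (37.5%) had no pooled entry. No cytosolic gene was missing in this way among the 11 named by the strongest entries of replicate 2, where 19 of 960 other genes were. The pooled list is labelled as peaks and background from both replicates. How it was made is not otherwise stated in these sources, and the cause was not tested.

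The summits lay close to the transcript start. At the 22 genes the strongest thresholded summit was between 123 bp before and 14 bp after the nearest start of the gene, at a median of −29 bp, where negative is upstream. It was upstream at 20 of 22 genes and within 50 bp of the start at 14 of 22, or 63.6%. At 1127 other genes with a thresholded summit the median was −134 bp, with quartiles of −238.5 and 10, and 10.6% were within 50 bp. RpL30 and RpL8 had their summits 9 and 14 bp past the start. RpL32 and RpS14a had theirs farthest out, at −123 and −122 bp. No start of another gene was nearer to the summit at any of the 22, although at 12 of them another gene began within 500 bp. With each summit given to its nearest start only, the 22 stayed. Over all protein-coding genes the count fell from 1149 to 1009. Some distances of the other genes thus belong to summits nearer to another gene. The summit was inside no annotated gene at 16, inside the gene itself at RpS4, RpL30, sta, RpL8 and RpS7, and inside NaCP60E at RpL41.

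The 500 bp limit of the choice falls in a gap for the thresholded list. The farthest gene inside it was RpL32 at 123 bp, and the next outside was RpL28, with a summit 623 bp before its start, a signal value of 231.0 and rank 1664. That peak is also the one assigned to eIF1, an initiation factor, 242 bp after its start. For the pooled list the farthest gene inside the limit was RpS28a, at 500 bp with a signal value of 82.0.

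**Figure D4:**
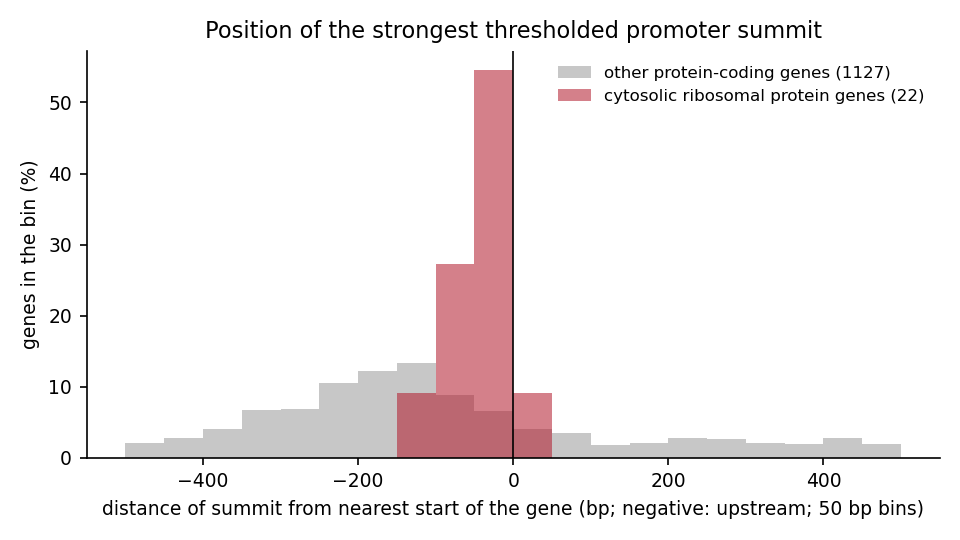
Distance of the strongest thresholded summit from the nearest start of the gene (bp, negative is upstream) in bins of 50 bp, as a share of genes (%), for 22 ribosomal protein genes and 1127 other protein-coding genes. The ribosomal protein genes lie between −123 and 14 bp, with a median of −29 bp against −134 bp.

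A further 13 genes had a pooled entry, which may be background, and no thresholded summit. RpS14b led them with a signal value of 134.7 at rank 4233, just below the weakest thresholded peak, at 140.7. RpL31 had 133.3, RpL17 131.7, RpL23 126.3 and RpL7A 112.8. In replicate 2 these genes ranked from 3909, at RpL17, to 21113, at RpS14b. The weakest pooled entries of the group were those of RpS10a (40.8) and RpS13 (39.0). Another 20 genes had an entry in a replicate list alone, among them RpS6, the substrate of S6 kinase, at rank 12682 in replicate 1 and 16112 in replicate 2. RpL3, RpS3, RpS20, RpL12 and RpL37-1 had an entry in replicate 1 alone, and RpL11 in replicate 2 alone.

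No list had an entry near 38 genes. Of the large subunit they included RpL4, RpL5, RpL6, RpL7, RpL7-like, RpL9, RpL10, RpL10Aa, RpL10Ab, RpL15, RpL18, RpL21, RpL22-like, RpL24-like, RpL26, RpL29, RpL35, RpL35A, RpL36, RpL36A, RpL37-2, RpL38 and RpL40. RpL5 is a carrier of the 5S ribosomal RNA. The stalk genes RpLP0 and RpLP2 were also without an entry. Of the small subunit they included RpS2, RpS3A, RpS5b, RpS15, RpS15Ab, RpS18, RpS19b, RpS24, RpS26, RpS27A, RpS28-like and RpS29. The nearest entry summit of any list was a median of 7647.5 bp away and over 5000 bp away at 21 of the 38. It was farthest from RpL15, at 2914395 bp, RpL38, at 468696 bp, RpS3A, the gene on chromosome 4, at 318273 bp, RpL21, at 151368 bp, RpL10, at 145872 bp, and RpL5, at 131996 bp. Several of these genes are known to lie in or beside pericentric heterochromatin, and whether their sequence could give entries there was not tested. The nearest were RpS28-like, at 532 bp, and RpS19b, at 590 bp.

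The share of genes with a thresholded summit differed in size between the arms. The X chromosome held 7 of its 15 ribosomal protein genes (46.7%, against 9.11% of all protein-coding genes there), namely RpS10b, RpL22, RpS28b, RpS14a, sta, RpS15Aa and RpS19a. On 3L they were 4 of 14 (28.6%, against 8.65%), on 3R 6 of 23 (26.1%, against 7.95%) and on 2R 4 of 21 (19.0%, against 8.52%). On 2L it was RpL30 alone of 19 genes (5.26%, against 7.3%). The strongest 3953 entries of replicate 1 named 7 of the 19 genes on 2L (36.8%, against 9.67% of all genes there) and 9 of the 15 on X (60.0%, against 10.2%). They named 8 of 21 on 2R (38.1%, against 10.3%), 8 of 23 on 3R (34.8%, against 10.1%) and 5 of 14 on 3L (35.7%, against 9.89%). The embryos were of both sexes, and the difference between arms was not tested.

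Genes with related symbols, such as RpL22 and RpL22-like, were grouped into 13 families. Whether the copies of a family encode the same protein was not checked. At most 1 copy of a family had a thresholded summit. One copy had it in 7 of the 13 families, and no copy in the other 6. The 7 are 25.9% of the 27 copies, near the 23.7% of all 93 genes. RpL22, RpS15Aa and RpS19a had thresholded summits while RpL22-like, RpS15Ab and RpS19b had no entry. RpL34b had a signal value of 221.8, whereas RpL34a had an entry in replicate 1 alone, at rank 2123. RpS10b had 254.0 in the pooled list, and the entry counted for RpS10a, at 40.8, lay 272 bp before its start inside tau. RpS28b had 179.9, and the entry counted for RpS28a, at 82.0, lay 500 bp past its start inside Mgat2, beyond the end of RpS28a and 73 bp from the start of Mgat2. RpS5a and RpL24 were among the strongest entries of replicate 1, and RpS5b and RpL24-like had none. The neighbours RpS14a and RpS14b, which are 220 bp apart, had 169.6 and 134.7 with separate summits. How reads from near-identical copies were placed is not stated in these sources, so values within a family may not be independent.

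The words of the core promoter were then counted from 200 bp before to 50 bp after the canonical start, and the TCT initiator from 10 bp before to 20 bp after it. A TCT word was present at 59 of the 93 genes (63.4%), against 3.36% of 13944 protein-coding genes. By class it was at 15 of 22 genes with a thresholded summit (68.2%), 4 of 13 with a pooled entry and no thresholded summit (30.8%), 15 of 20 with a replicate entry alone (75.0%) and 25 of 38 with no entry (65.8%). The exact 95% interval was 45.1 to 86.1 with a thresholded summit and 48.6 to 80.4 with no entry, and the difference was not tested. At the start nearest to the summit in place of the canonical one, the word was again at 15 of 22, and at 42 of 1127 other genes with a thresholded summit (3.73%). RpL32, RpL34b and RpS4 carry it at that start and not at the canonical one, and RpL30, RpS10b and RpS15Aa the reverse.

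The DRE, the site of the factor DREF, was at 9 of 22 genes with a thresholded summit (40.9%, interval 20.7 to 63.6) and 8 of 38 with no entry (21.1%, interval 9.55 to 37.3), against 8.25% of all genes. It was at 3 of 13 genes with a pooled entry and no thresholded summit (23.1%) and 6 of 20 with a replicate entry alone (30.0%). RpL19, RpL27, RpL41, RpS7 and RpS10b were among the 9. The Motif 1 core was at 4 of 22 (18.2%), namely RpL27, RpL30, RpS23 and sta, against 10.5% of those with no entry and 7.06% of all genes. The Motif 6 core, added after the sequences were seen, was at 5 of 22 (22.7%) and 8 of 38 (21.1%), against 8.2% of all. In the classes between, it was at 0 of 13 with a pooled entry and 8 of 20 with a replicate entry alone (40.0%). The E-box CACGTG, a site of Myc, was at RpL32 and RpL34b (9.09%), at 15.8% of the genes with no entry and at 3.59% of all. The TATA box TATAAA, on the sense strand, was at 22.7% of the genes with a thresholded summit, 23.7% of those with no entry and 28.0% of all. AACTTCAC, also added later, was at RpS28b and RpS19a among the 22, at 4 of the 93 genes and at 0.681% of all.

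**Figure D5:**
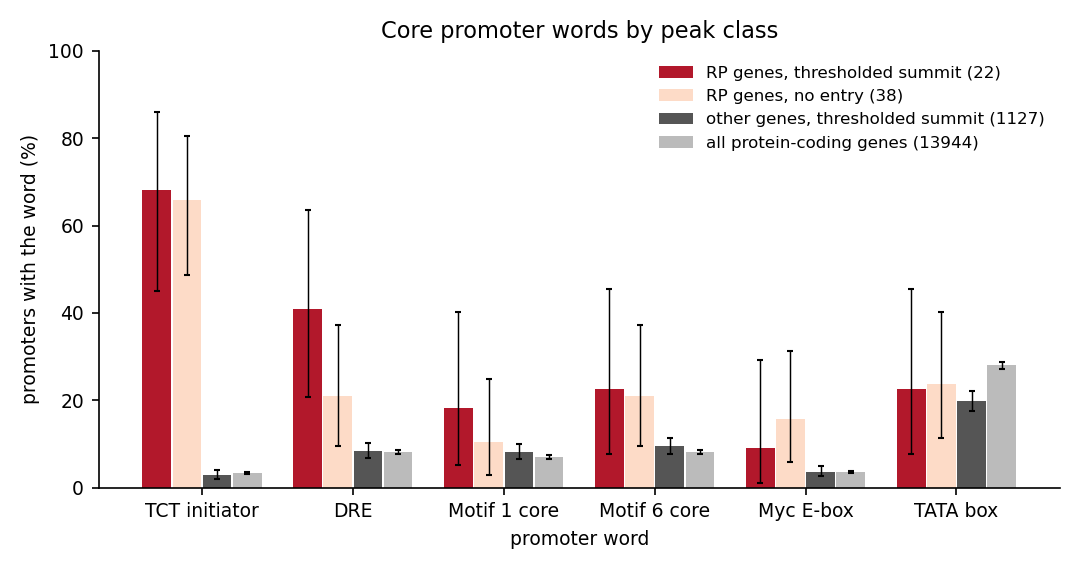
Share of promoters (%) with each core promoter word, for ribosomal protein (RP) genes with a thresholded summit, those with no entry in any list, other genes with a thresholded summit and all protein-coding genes. Error bars are exact 95% binomial intervals over genes. The TCT initiator word was at 68.2% and 65.8% of the ribosomal protein genes with a summit and with none, and at 3.36% of all genes.

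A pair of further words was searched for at the summits themselves. Within 50 bp of the summit, the C-rich octamer CCCACCCC was found on either strand at 0 of 22 ribosomal protein genes and 66 of 1127 other genes with a thresholded summit (5.86%). GAGAG, the core of the GAGA element bound by the Trithorax-like factor, was at 0 of 22 against 323 of 1127 (28.7%). The searched windows lie at different distances from the start. The median summit was at −29 bp for the 22 genes and at −134 bp for the other genes. Windows matched for this distance were not compared. The exact 95% interval for 0 of 22 reaches 15.4%. That bound lies above 5.86% and below 28.7%, so 22 genes are too few to tell the octamer's share from that of the other genes.

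Many ribosomal protein genes of the fly host small nucleolar RNAs (snoRNAs), which guide modification of ribosomal RNA, in their introns. Of the 22 genes with a thresholded summit 7 held annotated snoRNA genes, 21 in all. Of the 20 with a replicate entry alone 10 held 37, of the 13 with a pooled entry 4 held 8, and of the 38 with no entry 8 held 10. The median gene length was 1428.5 bp with a thresholded summit, 1073 bp with a pooled entry and no thresholded summit, 1459.5 bp with a replicate entry alone and 1170 bp with no entry, so it followed no order of the classes.

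Other genes of translation and growth were counted from lists of the same kind. Mitochondrial ribosomal protein genes had a thresholded summit at 5 of 73 (6.85%), a share near the 8.24% of all genes. Their strongest peaks were at mRpL41 (signal value 763.8), mRpS10 (631.6), mRpS23 (571.4) and mRpL23 (397.2). The first 3 exceeded that of RpS27. Their summits were a median of 146 bp upstream, and 0 of 5 lay within 50 bp of the start. Initiation factor genes had one at 6 of 44 (13.6%), led by eIF6 (512.7), eIF4EHP (470.1), eIF4A (392.0) and eIF1 (231.0). Elongation and release factor genes had one at 3 of 10, eEF1gamma (305.1), eEF1alpha1 (244.6) and eRF3 (156.8). The summit at eEF1gamma was 35 bp before its start.

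Ribosome biogenesis factors had a thresholded summit at 3 of 38 (7.89%), at eIF6, pes (262.3) and Nop17l (199.4). Subunits of RNA polymerases I and III, which make ribosomal and transfer RNA, had one at 1 of 14, Polr1D (476.8). A last list of 12 genes held other growth and translation regulators, and l(3)neo38 itself was placed among them without being known here as one. It had 3 genes with a thresholded summit, of which 1 was l(3)neo38 (1170.4). The others were Thor, the translation repressor 4E-BP (259.7), and pont, a partner of Myc (156.5). The gene tagged in this line is l(3)neo38, and whether the transgene adds to the signal there was not tested. These lists were small, and no test was run between them and the cytosolic ribosomal protein genes.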

How the data were processed

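ChIP-seq of l(3)neo38-GFP was analysed in 2 biological replicates of 1 group. Per the labels, chromatin was sonicated to fragments of 200 to 800 bp. The deposited files used are dm6 peak lists: 1 per replicate and 1 pooled, each of 30000 entries, and the thresholded list of 3953. The pooled list is labelled as peaks and background, the input to the thresholding step. The signal of each entry is the strength deposited by the authors. No source used here gives its normalization, the peak caller or the threshold, so it served only to rank entries within a list. No read counts were used, so depth is unknown and intervals (exact binomial, 95%) cover counting over genes only. Both replicates come from 1 line, per the labels.

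Starts came from Ensembl 115 and sequence from the release 6 genome, on 6 arms. A gene had an entry when a summit lay within 500 bp of any transcript start, and its strongest was used. Older symbols gave the match for 7 names in the other lists, and 10 names had no match. Genes named are those with a thresholded summit, the 6 strongest with a pooled entry alone, those with no entry, their paralogues, and up to 4 of each other list, except a few genes that are counted but not reported here by name. Further genes strong in replicate 1 and the other replicate-only genes named were chosen after their values were seen. The genes and lists were chosen with earlier results of these data known. With 1 group no test was run. The procedures were tested on simulated data with Python 3.11.15, pandas 2.3.3 and SciPy 1.17.1. Alternatives covered windows, transcript and gene assignment, stricter lists and each replicate alone.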

Additional observations from a re-analysis of the deposited data

How the results depend on the processing

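The 22 genes with a thresholded summit became 13 among its 1976 strongest peaks, where 4.93% of all protein-coding genes remained against 8.24%. With either replicate left out, the count ran from 11 (without replicate 1) to 37 (without replicate 2). Halving the strongest entries gave 19 genes in replicate 1 and 4 in replicate 2, and doubling them gave 22 in replicate 2. Halving also took the genes strong in replicate 1 with no pooled entry from 12 to 6. The shares of all genes at these list lengths are not given here, so whether other genes moved alike is not shown. Windows of 250 or 1000 bp and the nearest or canonical start only moved none of the 6 counts of genes per list by over 1.5 times, and leaving out -like genes, tried for the thresholded list alone, kept its count at 22. No paired analysis was possible because there is 1 group. The cause of the differences between replicates was not tested. Unknown depth limits every statement on genes with no entry.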
